A study of Mus musculus with 3 samples.

Results

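Enteroendocrine cells are the hormone-secreting cells of the gut lining, and a small set of transcription factors directs their formation. The 10 factors considered here are Neurog3, Neurod1, Pax4, Pax6, Nkx2-2, Isl1, Insm1, Mnx1, Rfx6 and Myt1. They were chosen by name, with earlier results of these data known. The question was whether each gene carried Suz12 or H3K27me3 in intestinal crypts, judged by deposited peaks around the gene in mm9. The aim was 5 kb beyond the gene, but positions were rounded and gene starts not fixed, so the windows reached further. An mm9 position was at hand for 5 of the 10: Neurog3, Neurod1, Isl1, Nkx2-2 and Pax6. Windows around those 5 held 13 of the 1477 deposited Suz12 peaks and 74 of the 25955 H3K27me3 peaks. Pax4, Insm1, Mnx1, Rfx6 and Myt1 had no mm9 position in the sources used here, so their peaks were not analysed here and nothing is said of presence or absence at them.

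The material was small intestinal crypts of C57BL/6 mice carrying the Lgr5Gfp-CreERT2 allele, which all libraries shared. Crypts hold stem cells, progenitors and differentiated cells together, and enteroendocrine cells are a rare part of them, so a peak reports the crypt population and not a cell type. Age, sex, number of animals and any treatment are not stated in the labels. Chromatin fixed with formaldehyde was precipitated with an antibody against Suz12 in 1 library and against H3K27me3 in another. One more library was input without antibody. Each antibody had 1 library, so values carry no replicate error and no difference between genes was tested.

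Polycomb repressive complex 2 trimethylates lysine 27 of histone H3, and Suz12 is one of its core subunits. The mark, H3K27me3, is found at silent developmental regulators, typically over CpG-rich promoters, and keeps lineage programmes off in cells that do not use them. In the crypt, progenitors that begin to express Neurog3, a basic helix-loop-helix factor, enter the enteroendocrine lineage. Neurod1, a related factor, acts after it. The homeodomain factors Pax4, Pax6, Nkx2-2, Isl1 and Mnx1, the zinc-finger factors Insm1 and Myt1, and the winged-helix factor Rfx6 then act in maturation and in the choice of hormone.

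CpG content is a sequence feature that the choice of genes did not use, and it is shown first for the genes with a position and for 1 CpG-poor contrast, Rfx6. The lines give the 250 bases before the annotated start, 5′ to 3′ on the gene's own strand, from RefSeq (GRCm38.p6), with CpG dinucleotides in capitals. Pax6 has 2 annotated starts in the table and the first is shown.
Neurog3: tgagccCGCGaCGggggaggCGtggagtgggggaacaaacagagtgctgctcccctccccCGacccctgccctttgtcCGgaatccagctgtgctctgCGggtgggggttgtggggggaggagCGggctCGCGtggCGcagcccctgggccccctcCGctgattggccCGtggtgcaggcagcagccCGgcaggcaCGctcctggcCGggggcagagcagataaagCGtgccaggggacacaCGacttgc
Neurod1: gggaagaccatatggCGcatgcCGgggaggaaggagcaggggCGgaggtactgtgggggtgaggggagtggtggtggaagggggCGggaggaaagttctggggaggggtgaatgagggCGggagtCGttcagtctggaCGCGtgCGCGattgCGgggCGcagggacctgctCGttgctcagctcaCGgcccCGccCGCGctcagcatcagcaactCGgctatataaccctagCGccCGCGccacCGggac
Isl1: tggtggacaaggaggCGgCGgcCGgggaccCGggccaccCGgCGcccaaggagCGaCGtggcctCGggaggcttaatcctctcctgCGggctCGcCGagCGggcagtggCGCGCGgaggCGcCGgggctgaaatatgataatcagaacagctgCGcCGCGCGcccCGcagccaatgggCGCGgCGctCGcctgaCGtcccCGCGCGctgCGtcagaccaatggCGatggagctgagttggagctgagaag
Nkx2-2: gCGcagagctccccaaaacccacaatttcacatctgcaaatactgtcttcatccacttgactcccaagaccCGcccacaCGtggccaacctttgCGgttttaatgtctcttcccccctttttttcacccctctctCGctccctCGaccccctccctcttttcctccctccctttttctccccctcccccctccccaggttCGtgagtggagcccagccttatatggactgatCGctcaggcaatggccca
Pax6: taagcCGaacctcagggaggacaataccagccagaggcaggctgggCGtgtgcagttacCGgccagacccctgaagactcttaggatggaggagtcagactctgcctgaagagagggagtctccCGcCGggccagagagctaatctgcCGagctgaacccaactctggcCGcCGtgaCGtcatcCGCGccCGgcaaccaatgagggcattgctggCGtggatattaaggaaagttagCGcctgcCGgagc
Rfx6: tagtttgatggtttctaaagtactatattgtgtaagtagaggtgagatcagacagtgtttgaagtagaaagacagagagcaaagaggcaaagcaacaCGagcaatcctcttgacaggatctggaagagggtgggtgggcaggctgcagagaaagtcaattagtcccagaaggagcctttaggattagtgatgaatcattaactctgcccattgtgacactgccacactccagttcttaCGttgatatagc

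Capitals are densest in Isl1, with 33 CpG, and sparse in Rfx6, with 2. The table matched 8 of the 10 members, all except Insm1 and Pax4. CpG content was expressed as the observed to expected ratio, the number of CpG divided by the number that the C and G content would give at random. The ratio was 1.05 at Isl1, 0.841 at Neurod1, 0.763 at Mnx1, 0.575 at Neurog3 and 0.539 at Nkx2-2. Pax6 had 0.652 at the first start and 1.06 at the second. Rfx6 had 0.175, and the 3 starts of Myt1 had 0.107, 0.0677 and 0.

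Every start of the 5 genes with an mm9 position therefore lay at or above the 62.0 percentile of all 32841 promoters in the table. Of the genes without a position, Mnx1 was also high (percentile 78.2), while Rfx6 (26.1) and all starts of Myt1 (at most 15.9) lay well below the middle. With starts averaged within a gene, the members' median ratio was 0.669, and 4 of 8 exceeded 0.6. That count depends on the stretch: over 300 bases, 50 of them after the start, Nkx2-2 had 0.791 instead of 0.539. The median over all promoters, taken by start and not averaged within genes, was 0.374 (quartiles 0.167 and 0.723), and 34.0% exceeded 0.6. Of 16 other transcription factors of the lineage, 12 matched, with a median of 0.68 and 8 above 0.6. Of 22 hormone and secretory product genes, 19 matched, with a median of 0.558 and 7 above 0.6. They ran from 0.0613 at Gip, which encodes an incretin hormone, to 1.05 at Tac1. Because the table follows another build, these promoters could not be laid over the mm9 peaks.

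**Figure D1:**
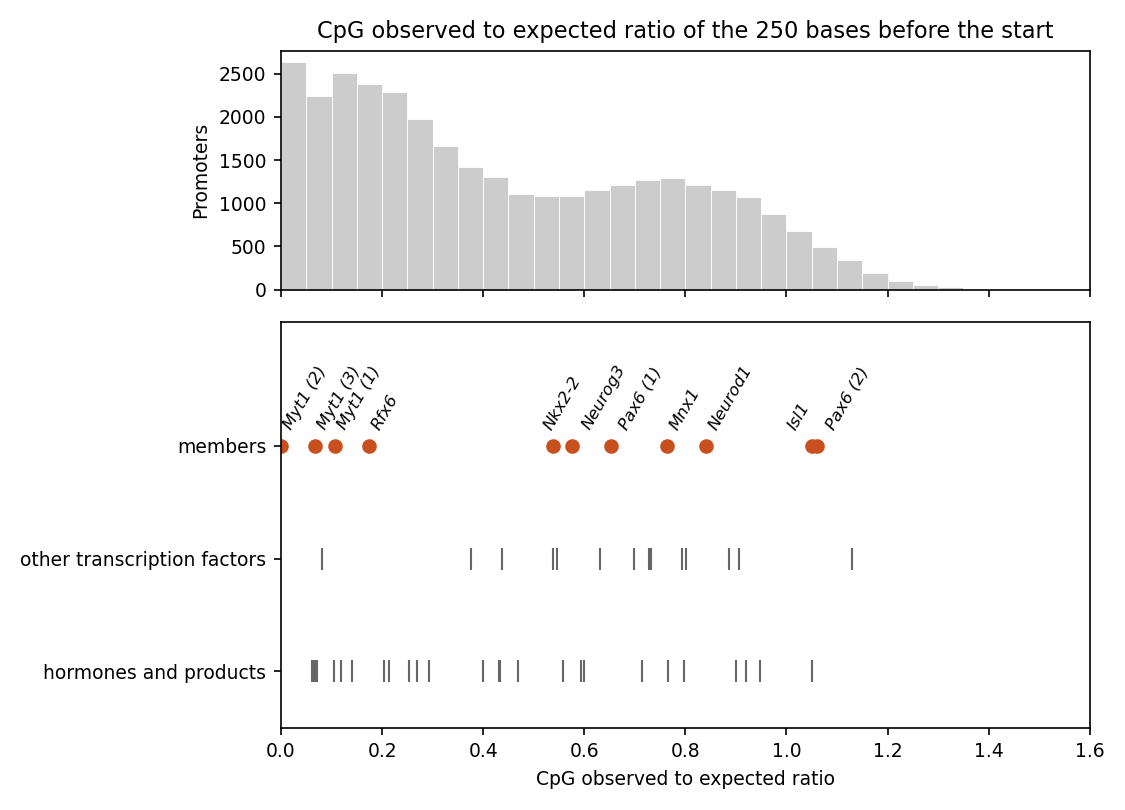
CpG observed to expected ratio of the 250 bases before the start: the upper panel is a histogram of all 32841 promoters in the table, and the lower panel has a point or tick for each start of the members, the other transcription factors and the hormone and product genes. Numbers in brackets are the starts of genes with several; Rfx6 and the 3 starts of Myt1 sit at or below 0.175, apart from the remaining member starts at 0.539 and above.

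H3K27me3 peaks were present at all 5 genes with a position, whereas Suz12 peaks were found at 2 of them, Pax6 and Nkx2-2. The number of H3K27me3 peaks was 26 at Pax6, 19 at Isl1, 16 at Nkx2-2, 8 at Neurog3 and 5 at Neurod1. Suz12 gave 11 peaks at Pax6 and 2 at Nkx2-2. All 13 of those Suz12 peaks overlapped H3K27me3. The share of the whole Suz12 list that does so is not given here, so this count is not read as particular to these genes. Windows differ in width with the length of the gene, from 23.3 kb in all at Neurog3 to 79.0 kb at Pax6, so counts are read against windows of equal width below, and each gene's count is not an amount relative to another's.

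**Figure D2:**
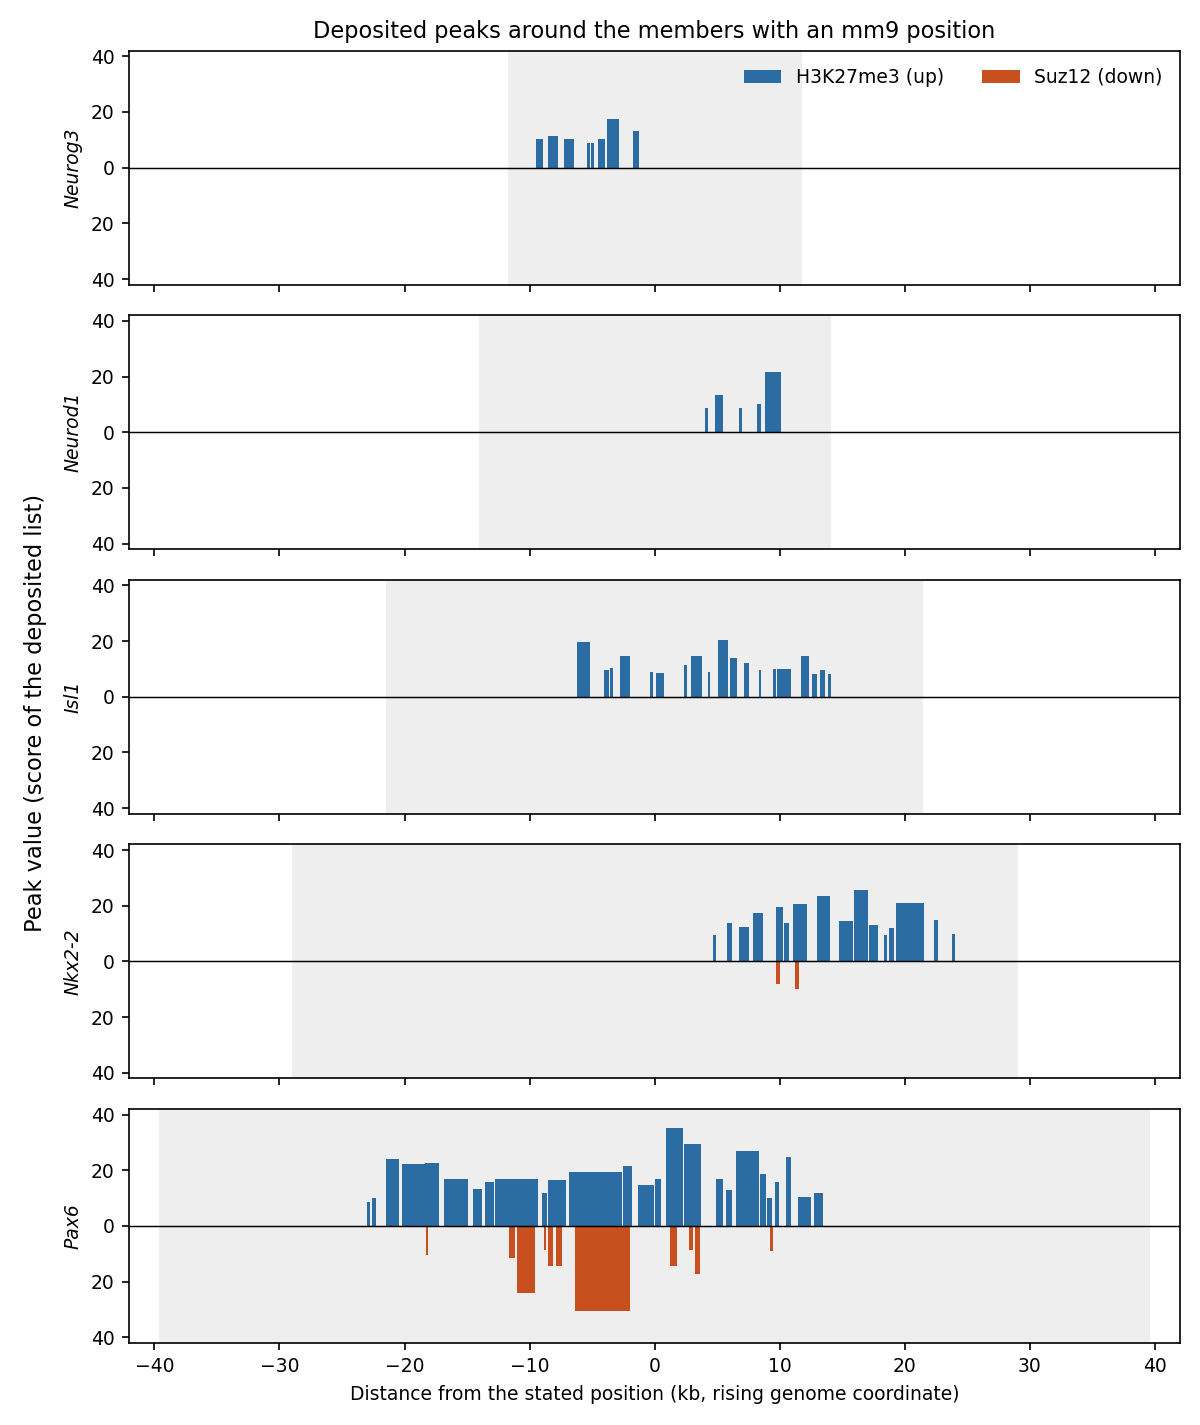
Deposited peaks at the 5 genes, as bars over their true width against distance in kb from the stated mm9 position (grey, the window searched), with H3K27me3 peak values drawn upward and Suz12 values downward on the same scale of list scores. Pax6 has bars of both kinds, Nkx2-2 has 2 small Suz12 bars of at most 9.76, and Neurog3, Neurod1 and Isl1 have H3K27me3 bars alone.

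Neurog3, which starts the enteroendocrine programme, had 8 H3K27me3 peaks and no Suz12 peak in the 11.7 kb on either side of its stated position, chromosome 10 at 61.6 Mb. Of all autosomal windows of this width, 7.13% held an H3K27me3 peak and 0.54% a Suz12 peak, and 0.844% held 8 or more H3K27me3 peaks. Here and below, such windows were laid end to end without regard to genes, so these are not shares over genes or promoters. Values of the 8 peaks ran from 8.75 through a median of 10.37 to 17.55, against a median of 11.2 in the whole list. The highest belonged to chr10:61596186-61597130, 945 bp wide, which stood at percentile 87.5 of the list. It was followed by chr10:61598296-61598750 with a value of 13.34 and chr10:61591472-61592288 with 11.21. The other 5 had values of at most 10.37, so most peaks in this row had low values and 1 stood higher. No peak reached the top decile of the list, which began at 18.6.

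Neurod1, at 79.29 Mb of chromosome 2, had 5 H3K27me3 peaks and no Suz12 peak within 14.0 kb. The background for this width was 8.04% of windows with H3K27me3 and 0.624% with Suz12, and 2.12% held 5 or more H3K27me3 peaks. The 5 values were 21.65, 13.26, 9.98, 8.75 and 8.68. A single peak, chr2:79298794-79300140, gave the first of these, was 1347 bp wide and stood at percentile 94.6, while 3 of the 5 lay below the list median. The top H3K27me3 value at Neurod1 was higher than at Neurog3, a difference of 1 library with no error to set it against. Peak numbers of the 2 genes depend on the window: with 50 kb on each side, both had 9.

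Isl1, a LIM homeodomain factor, had 19 H3K27me3 peaks and no Suz12 peak within 21.4 kb of 117.09 Mb on chromosome 13. Windows of this width held H3K27me3 in 10.7% and Suz12 in 0.901% of cases, and 0.269% held at least 19 H3K27me3 peaks. Values ran from 8.11 through a median of 10.14 to 20.52. The highest lay at chr13:117095044-117095876 (833 bp) and the next, 19.52, at chr13:117083795-117084799 (1005 bp), near one end of the marked stretch. These were the only Isl1 peaks in the top decile, and 8 of the 19 exceeded the list median. Isl1 therefore had many peaks, with a median value a little under the list median of 11.2.

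Nkx2-2, an NK-family homeodomain factor of enteroendocrine subtype choice, had 16 H3K27me3 and 2 Suz12 peaks within 28.9 kb of 147 Mb on chromosome 2. Of windows this wide, 13.0% held H3K27me3 and 1.16% Suz12, while 0.705% held 16 or more H3K27me3 peaks and 0.7% held 2 or more Suz12 peaks. H3K27me3 values ran from 9.55 through a median of 14.14 to 25.67, and 13 of the 16 exceeded the list median. The highest were chr2:147015921-147017067 at 25.67, chr2:147013016-147014027 at 23.59 and chr2:147019273-147021508 at 21.13. None of these 3 overlapped Suz12. The Suz12 peaks lay at chr2:147011229-147011558, with a value of 9.76, and chr2:147009685-147010055, with 8.05. H3K27me3 covered the first whole and 83.8% of the second, in H3K27me3 peaks with values of 20.52 and 19.52. Both Suz12 values lie low in their list, which begins at 8: 48 of 1477 Suz12 peaks (3.25%) had a value of 8.05 or less, and 23.7% had a value under 9.76. The RefSeq table places the noncoding genes Nkx2-2os and 6430503K07Rik and the pseudogene Gm14116 within reach of this window, so a peak in it need not belong to Nkx2-2.

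Pax6, a paired-domain and homeodomain factor that acts in glucagon- and GIP-producing cells, had the most peaks of both kinds, in the widest window. With only 10 kb on either side, Pax6 and Isl1 had 15 H3K27me3 peaks each, and Pax6 kept 9 Suz12 peaks. Within 39.5 kb of 105.52 Mb on chromosome 2 there were 26 H3K27me3 and 11 Suz12 peaks. Windows of this width held H3K27me3 in 16.0% and Suz12 in 1.55% of cases. Only 17 of 31274 such windows (0.0544%) held 11 or more Suz12 peaks, and 119 (0.381%) held 26 or more H3K27me3 peaks. Elp4, Paupar and Pax6os1 are within reach of the window in the RefSeq table, so not every peak need belong to Pax6.

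Suz12 values at Pax6 ran from 8.63 through a median of 14.29 to 30.56, against a list median of 11.7. The highest belonged to a peak of 4396 bp at chr2:105513654-105518049, at percentile 97.0. The next, chr2:105508989-105510471, had 24.25 over 1483 bp. These were the only 2 in the top decile of the Suz12 list, which began at 21.4. The other 9 were 207 to 547 bp wide with values of at most 17.45, and lay around those 2, from chr2:105501695-105501907 (10.31) to chr2:105529193-105529463 (8.9). H3K27me3 covered 9 of the 11 whole, 98.1% of the widest and 84.5% of the peak at 105529193.

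H3K27me3 values at Pax6 ran from 8.61 through a median of 16.81 to 35.26. The highest peak was chr2:105520927-105522252 (1326 bp, percentile 99.8), followed by chr2:105522378-105523727 at 29.38 and chr2:105526524-105528344 at 26.77. In all, 9 of the 26 were in the top decile and 22 exceeded the list median. The H3K27me3 peak and the Suz12 peak with the highest values did not coincide. Over the 4396 bp Suz12 peak, the broadest H3K27me3 peak (4234 bp, chr2:105513155-105517388) had a value of 19.25, and the neighbouring chr2:105517472-105518187 had 21.51. The H3K27me3 peak of 35.26 overlapped a Suz12 peak with a value of 14.29, and that of 26.77 overlapped none.

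Within Pax6, the 9 H3K27me3 peaks that overlapped Suz12 had a median value of 19.2 and a median width of 1326 bp. The 17 that did not had a median of 15.8 and 671 bp, and reached 26.77. Wider peaks have more room to overlap and lie in 1 locus of 1 library, so no test was made of this difference.

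**Figure D3:**
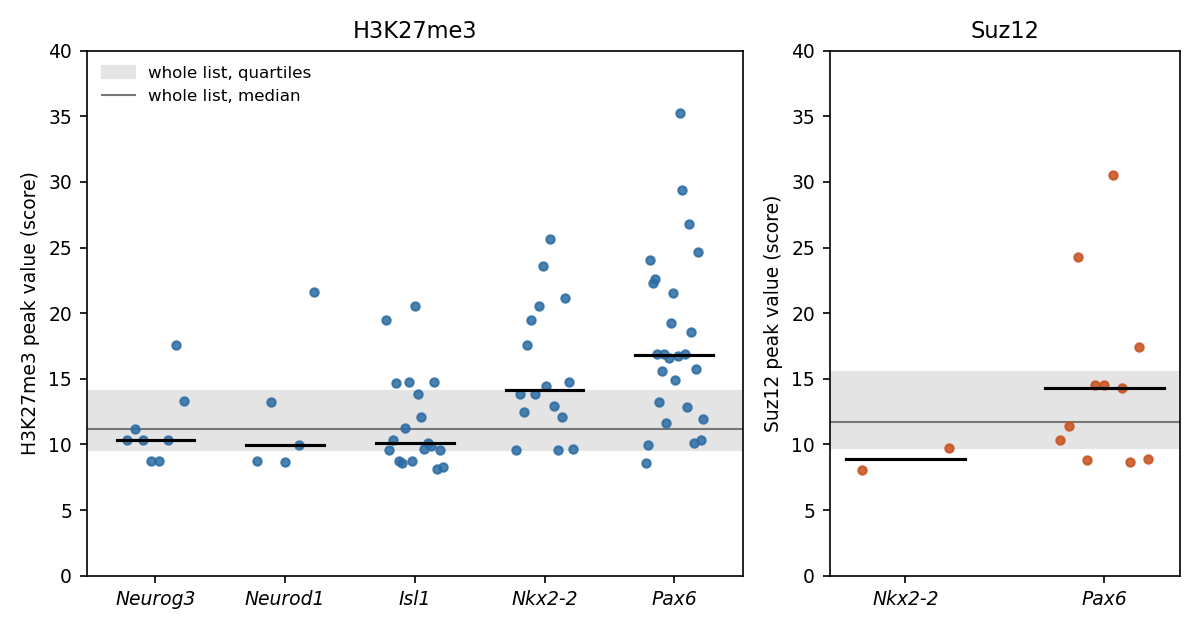
Each point is the value (list score) of 1 deposited peak, in genome order within a gene, for H3K27me3 (left) and Suz12 (right); black bars are medians, and the grey band and line are the quartiles and median of the whole list. Medians at Neurog3, Neurod1 and Isl1 lie just under the H3K27me3 list median of 11.2, those at Nkx2-2 and Pax6 above it, and both Nkx2-2 Suz12 points lie at or under the lower quartile of the Suz12 list.

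Joining H3K27me3 peaks over gaps of at most 5000 bp placed all peaks of each gene in 1 domain. The Pax6 domain, chr2:105497016-105533441, was 36.4 kb long and 78.8% of it lay in peaks. Isl1 followed with 20.3 kb (chr13:117083795-117104075, 46.5% in peaks) and Nkx2-2 with 19.3 kb (chr2:147004681-147024011, 59.9%). Neurog3 had 8.23 kb (chr10:61590516-61598750, 55.6%) and Neurod1 6.09 kb (chr2:79294049-79300140, 46.5%). These lengths depend on the gap: joining over at most 1000 bp left stretches of up to 26.7 kb at Pax6, 12.9 kb at Nkx2-2, 11.7 kb at Isl1, 3.04 kb at Neurog3 and 1.97 kb at Neurod1, with Nkx2-2 then ahead of Isl1. At 5000 bp, all 5 exceeded the median of 1331 bp over 7663 domains. Only 66 domains (0.861%) were longer than that of Pax6 and 42 (0.548%) had a higher top value. For Neurod1, the shortest, 1424 (18.6%) were longer and 920 (12.0%) had a higher top value. Suz12 peaks covered 31.0% of the H3K27me3 sequence in the Pax6 domain and 5.53% in that of Nkx2-2.

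The domains of Isl1 and Nkx2-2 were close in length, yet 1 held Suz12 and the other did not. Among domains between 50% and 150% of the length of Isl1's, 231 of 674 (34.3%) held a Suz12 peak, and for Nkx2-2 it was 236 of 706 (33.4%). The shares were 11.1% (165 of 1485) for Neurog3, 6.65% (116 of 1744) for Neurod1 and 51.5% (155 of 301) for Pax6. For Isl1, like-sized domains with Suz12 had a median top H3K27me3 value of 26.8 and those without it 18.6, with Isl1 itself at 20.52. Nkx2-2, at 25.67, lay near the 26.6 of like-sized domains with Suz12. Neurog3 at 17.55 lay between 24.6 with and 15.8 without, nearer the latter. Neurod1 at 21.65 lay between 24.5 with and 15.6 without, nearer the former although it held no Suz12. Pax6, at 35.26, was above the 28.3 of its like-sized domains with Suz12. Most like-sized domains held no Suz12 peak for Neurog3, Neurod1, Isl1 and Nkx2-2 alike, although Nkx2-2 itself held it. The comparison matched domains on length and not on top value, and why some hold Suz12 was not tested.

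**Figure D4:**
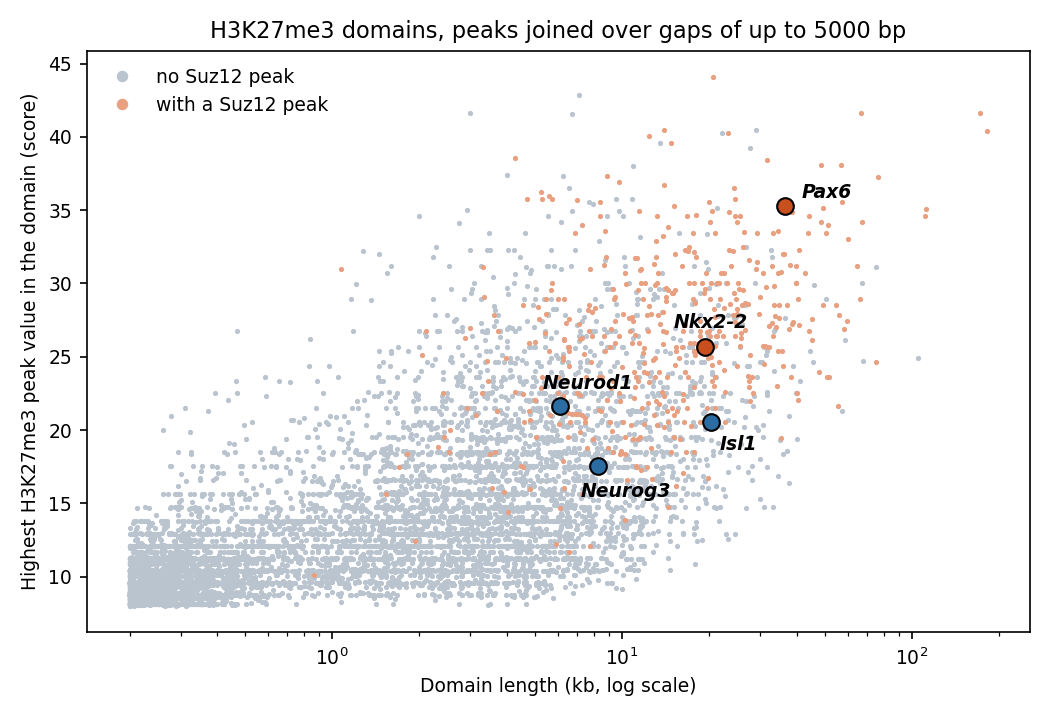
Each point is 1 of the 7663 H3K27me3 domains, by length (kb, log axis) and by the highest H3K27me3 peak value in it (list score), coloured by whether a Suz12 peak overlaps it; circled points are the domains of the 5 genes. Pax6 lies at the upper right among domains with Suz12, Isl1 and Nkx2-2 lie side by side in length at 20.3 and 19.3 kb, and Neurog3 and Neurod1 lie further left at 8.23 and 6.09 kb, still above the median of all domains.

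Peak names carry running numbers that rise with position on all 22 chromosomes of the Suz12 list and all 20 of the H3K27me3 list, with gaps where a numbered peak is not in the deposited list. No Suz12 number is missing around the genes without Suz12. Numbers 124 and 125 stand on either side of Neurog3, 0.158 Mb below and 5.4 Mb above its position, and 926 and 927 on either side of Neurod1, 4.72 Mb below and 5.44 Mb above. At Isl1, number 452 is the last on chromosome 13, 1.84 Mb below the gene, and 453 begins the next chromosome. So no numbered Suz12 peak, kept or left out, lay at these 3 genes. At Pax6, 1 Suz12 number is missing inside the run of 12, and at Nkx2-2 none is missing between its 2 peaks. Suz12 numbers are also missing just outside these runs, between 936 and 938 at Pax6 and between 988 and 990 at Nkx2-2. Where those left-out peaks lay is unknown, and they may fall in the windows. Among H3K27me3 numbers, 3 of 22 are missing across the Isl1 peaks, 2 of 10 at Neurog3, 2 of 18 at Nkx2-2, 1 of 27 at Pax6 and none of 5 at Neurod1. These counts stop at the first and last peak of each gene, and others are missing beyond, as between 17270 and 17273 at Neurod1. Since the read depth is unknown, Suz12 below what the peak caller could number was not detectable and is not shown to be absent.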

How the data were processed

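The members and gene lists were chosen with earlier results of these data known. The authors deposited 1 peak list each for Suz12 and H3K27me3, from 1 library per antibody. An input library belongs to the series and its data were not used here. Per the submitters' processing notes, Bowtie and MACS2 were used with mm9; neither versions, roles nor parameters are listed there, nor whether the input served as control. Column 5 of the deposited lists is a score of unstated meaning, called the peak value, and is used only within a list. It begins at 8 in both lists. The read depth is unknown, so no interval or floor is given. Starts were counted from 1.

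The members named are the 10 genes of the rule. Each window covered the gene's length on either side of the mm9 position given to the nearest 10 kb, plus 5 kb of flank and 5 kb for rounding. The gene length came from a RefSeq table of GRCm38.p6, and no coordinate was converted between builds. The windows therefore contain the gene and its flanks but do not fix where it starts. Peaks counted when they overlapped a window by 1 bp. Domains were made by joining H3K27me3 peaks over gaps of up to 5000 bp. The background was the share of consecutive windows of equal width on the 19 autosomes that held a peak, with chromosome lengths from GenomeInfoDb 1.38.1. Those windows were not placed on genes. Promoter sequences were the 250 bases before the start in the RefSeq table (GRCm38.p6), leaving out 10 entries with unread bases. Python 3.11.15, numpy 2.4.6, pandas 2.3.3 and matplotlib 3.10.9 were used. Counting and joining were tested on simulated data. With no replicate, no test was run. Alternatives changed the window, the overlap, the peaks counted, the joining gap and the promoter measure.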

Additional observations from a re-analysis of the deposited data

How the results depend on the processing

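No paired analysis was possible because each antibody has a single library, and for the same reason no replicate could be left out. The number of genes with a Suz12 peak was 1 instead of 2 with Suz12 restricted to the upper 50% of its list, because both Nkx2-2 peaks dropped out. The median domain length was 11.7 kb instead of 19.3 kb at a joining gap of 1000 bp. The other 13 of 15 settings for the results over all genes stayed within 1.5 times the reported value. Of 55 settings for single genes, 43 did too and 12 moved, among them Nkx2-2 H3K27me3 peaks, 5 instead of 16 with only 10 kb on either side. Some settings could not move a result: a Suz12 count of 0 stays 0 in a narrower window or with fewer peaks. A wider window likewise cannot lower a count, so the tally overstates stability. The windows are wider than the genes, and the minimum value of 8 and the unknown depth limit any statement on weaker sites.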

Other observations

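Beyond the window of Neurod1, a separate group of 4 H3K27me3 peaks lay at chr2:79267260-79270062, with values of 8.75 to 17.55. It ended 19.9 kb below the stated position of Neurod1, just outside the window, and was the only other H3K27me3 within 50 kb. One peak at chr10:61618932-61619153, with a value of 9.27, lay 18.9 kb above the position of Neurog3. No further peak of either kind lay outside the windows and within 50 kb of the positions of Isl1, Nkx2-2 or Pax6.

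Around Pax6, the nearest H3K27me3 peaks outside the window were 66.2 kb below its position and 1.01 Mb above it, and the nearest Suz12 peaks 0.552 Mb below and 10.2 Mb above. At Isl1, the nearest H3K27me3 peaks outside the window were 1.84 Mb below and 0.403 Mb above. At Nkx2-2, a Suz12 peak with a value of 16.42, higher than both of those in its window, lay 88.4 kb below its position at chr2:146911219-146911589; no mm9 gene was assigned to it here.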
